A study of Mus musculus with 32 samples.

Results

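Histone lysine demethylases take methyl groups off lysine residues of histone tails, and the RNA of 10 genes that encode them was compared between WT mESCs and mESCs labelled Eed-/-. The members were found by symbol, as Kdm1a, Kdm2a, Kdm2b, Kdm3a, Kdm3b, Kdm4a, Kdm4b, Kdm4c, Kdm5b and Kdm6b, and are 10 of the 24028 gene symbols that the RNA-seq libraries list. mESCs are pluripotent cells from the early mouse embryo that are kept in culture. The study asked how large promoter regions without DNA methylation, called DNA methylation valleys (DMVs), are kept in that state, and whether Polycomb is needed for it. EED is the subunit through which Polycomb repressive complex 2 (PRC2), the enzyme complex that methylates H3K27, recognizes its own mark. Both RNA-seq libraries carry the label of the TT2 mESC line and the same culture conditions, serum with LIF on gelatin, and differ in the genotype label, WT or Eed-/-. The RNA labels do not describe the Eed allele, and Eed-/- samples of other assays in the series carry another line name, so genotype, line and culture cannot be told apart in a difference between the libraries. Each genotype has 1 library of strand-specific RNA-seq after removal of ribosomal RNA. No test between the genotypes could be made with 1 library each, and differences are given as sizes with the counting error of the reads.

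Removal of histone methylation is carried out by enzymes of different chemistry. KDM1A, also called LSD1, is a flavin-dependent amine oxidase that takes off mono- and dimethylation of H3K4, a mark of active promoters and enhancers. The other members carry a JmjC domain, which uses iron, oxygen and alpha-ketoglutarate and can also remove trimethylation. KDM2 enzymes act on H3K36, KDM3 enzymes on mono- and dimethylated H3K9, KDM4 enzymes on trimethylated H3K9 and H3K36, KDM5 enzymes on di- and trimethylated H3K4, and KDM6B on di- and trimethylated H3K27, the mark that PRC2 lays down. KDM2A and KDM2B also bear a CXXC zinc finger that binds unmethylated CpG, and KDM2B brings a variant form of Polycomb repressive complex 1 to CpG islands. In mESCs KDM1A is known for silencing enhancers on differentiation, and KDM5B for limiting H3K4 methylation around promoters.

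By the changes given below, Kdm2b and Kdm3a were the members highest in the library labelled Eed-/- relative to WT, and Kdm1a was the lowest. Kdm6b (0.54) stood farther from 0 than Kdm1a (-0.46) but had no promoter window. The 250 bases before annotated starts of Kdm1a, Kdm2b and Kdm3a are shown because DMVs are regions of unmethylated CpG and CXXC domains bind it. They were read from RefSeq promoter windows of the GRCm38.p6 table and placed on the NCBIM37 (mm9) assembly by exact match. All run 5′ to 3′ on the minus strand, which is the strand of all 3 genes, and each CpG is in capitals. The Kdm1a window is chr4:136158639-136158888, the Kdm2b window chr5:123350360-123350609 and the Kdm3a window chr6:71582912-71583161. Those of Kdm1a and Kdm3a lie just outside the gene as GENCODE places it, and that of Kdm2b lies inside it, 114480 bases from the outermost annotated start. The Kdm2b window precedes an internal start, from which a shorter KDM2B form known to lack the JmjC domain is made.
Kdm1a: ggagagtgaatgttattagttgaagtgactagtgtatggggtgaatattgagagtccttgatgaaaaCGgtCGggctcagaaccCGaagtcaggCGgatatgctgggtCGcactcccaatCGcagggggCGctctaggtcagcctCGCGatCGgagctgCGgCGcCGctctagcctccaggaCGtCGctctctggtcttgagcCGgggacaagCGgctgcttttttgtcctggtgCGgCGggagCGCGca
Kdm2b: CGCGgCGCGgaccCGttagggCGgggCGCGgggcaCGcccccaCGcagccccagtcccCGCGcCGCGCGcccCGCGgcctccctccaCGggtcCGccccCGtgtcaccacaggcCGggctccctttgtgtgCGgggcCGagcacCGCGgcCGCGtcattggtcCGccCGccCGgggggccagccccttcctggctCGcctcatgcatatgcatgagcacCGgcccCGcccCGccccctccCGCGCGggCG
Kdm3a: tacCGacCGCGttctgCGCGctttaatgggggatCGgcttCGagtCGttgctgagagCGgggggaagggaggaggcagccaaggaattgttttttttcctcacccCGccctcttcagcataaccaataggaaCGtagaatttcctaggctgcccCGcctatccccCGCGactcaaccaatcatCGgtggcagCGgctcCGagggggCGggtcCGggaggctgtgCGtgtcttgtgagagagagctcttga

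All 3 windows are dense in CpG. The Kdm1a window holds 21 CpG, the Kdm2b window 38 and the Kdm3a window 20, against a median of 6 in the 32851 windows of the RefSeq table. Of all windows, 83.7% hold fewer CpG than that of Kdm1a, 98.1% fewer than that of Kdm2b and 82.1% fewer than that of Kdm3a. The Kdm2b window printed is the densest of that gene, and its other windows hold 12, 27 and 36 CpG. The other windows of Kdm3a hold 31 and 0. In all, 6 members have 12 windows between them, and their CpG numbers run from 0 to 38. Kdm2a, Kdm3b, Kdm4b and Kdm6b had no window in the table. The hypoxia response core, ACGTG or GCGTG on either strand, was searched because several JmjC genes are known targets of hypoxia-inducible factors, and ACGTG is also part of the E-box CACGTG. These letters were found in 7 of the 12 windows, and in 38.6% of all windows. Both forms of the core contain a CpG, and windows of like CpG number were not compared, so enrichment of the core was not tested. Of the windows printed, that of Kdm2b holds 2 matches, that of Kdm3a 1 and that of Kdm1a 0. Kdm3a has 3 windows in all, and the other 2 hold 0. Windows of a gene with starts close together overlap and are not independent. The gene-level values that follow do not separate the starts of a gene, so no level can be given for a single Kdm2b start.

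Levels are given as FPKM, the number of fragments per kilobase of transcript and scaled to the mapped reads, that the authors deposited for each symbol. The steps between low values place the depth at about 7230000 fragments in the WT library and 6450000 in the one labelled Eed-/-. The members were covered by about 81 to 4019 fragments each, from which 95% intervals were computed, and these cover counting error only, not the spread between cultures or the copies made by PCR. A change is the difference of log2(FPKM + 1) after quantile normalization, the library labelled Eed-/- minus WT, and over the 14835 genes used, those whose normalized FPKM averaged 0.1 or more, its median was 0.01. Eed itself, on chromosome 7 from 97103166 to 97129493, was at an FPKM of 63.0 in the WT library and 70.9 in the one labelled Eed-/-, so its RNA did not check the genotype label. The paper reports a check of Eed loss through H3K27me3, by western blot and ChIP-seq, which was not repeated here. The 8 pluripotency markers were all high, from 25.5 to 393 in the WT library and from 44.4 to 373 in the other, as the label of pluripotent cells has it. They also differed, with a median change of 0.47. Of them, 4 were at least 1.5-fold higher (Zfp42 by 1.30, Klf4 by 0.99, Nanog by 0.86 and Dppa5a by 0.80) and 0 at least 1.5-fold lower. Of all genes used, 12.3% were at least 1.5-fold higher and 12.4% at least 1.5-fold lower. Markers of 3 other cell types are given next. The summed FPKM of 8 fibroblast markers was 26.6 in the WT library and 126 in the one labelled Eed-/-, nearly all of it Vim (24.9 and 118), and 7 of the 8 in the WT library and 6 in the one labelled Eed-/- were under an FPKM of 1. Among the 8, Lum and Dcn were at 0 in WT, and Col3a1, Postn and Dcn were at 0 in the library labelled Eed-/-. Of the 3 fibroblast markers used, Vim and Thy1 (0.976 and 6.97) had changes above 0, and Col1a1 (0.460 and 0.137) had one below. The sum of 9 primitive endoderm markers was 17.9 and 63.0, with Sox17 at 0 in the first and Foxa2 in the second. Of these sums, the basement membrane genes Lama1, Col4a1 and Col4a2 made 16.6 and 59.6, and the highest of the other markers was at 0.499 and 1.35. The 8 primitive endoderm markers used all had changes above 0, with a median of 0.64. Of them, 4 were at least 1.5-fold higher, the basement membrane genes and Gata4 (0.431 and 1.35, change 0.73). For 8 trophoblast markers the sum was 60.1 and 20.6, with Elf5 at 0 in both and Hand1 at 0 in WT. Most of that difference was Tfap2c (39.8 and 9.21), and of the 7 markers used 3 had changes above 0, among them Eomes (0.478 and 1.93), and 4 below. The part of such cells in the results was not tested, and in bulk RNA fewer cells of a type and less RNA per cell cannot be told apart. Genes of chromosomes 1, 8 and X were shifted as a whole, with median changes of -0.30, -0.39 and 0.46, while the median of every other autosome lay between -0.07 and 0.12.

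All 10 members passed the filter on low values, and every one had reads in both libraries. Their changes ran from -0.46 for Kdm1a to 0.91 for Kdm2b, with a median of 0.02, 5 above 0 and 5 below 0. No member was at least 2-fold higher or lower, where 3.8% of all genes were at least 2-fold higher and 3.98% at least 2-fold lower. In the library labelled Eed-/-, Kdm2b and Kdm3a were the 2 members at least 1.5-fold higher, against 12.3% of all genes, and no member was at least 1.5-fold lower, against 12.4% of all genes. These calls depended on the scaling, since with the FPKM as deposited Kdm3a (0.47) was no longer at least 1.5-fold higher and Kdm1a (-0.66) was at least 1.5-fold lower. The counting interval of the change left out 0 for 8 members, 4 on each side, and held 0 for Kdm2a and Kdm4b. The share of all genes whose intervals leave out 0 was not computed. Such intervals narrow as fragments increase, so the count is not a trait of the members. The spread between cultures, which these intervals leave out, was not measured.

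**Figure D1:**
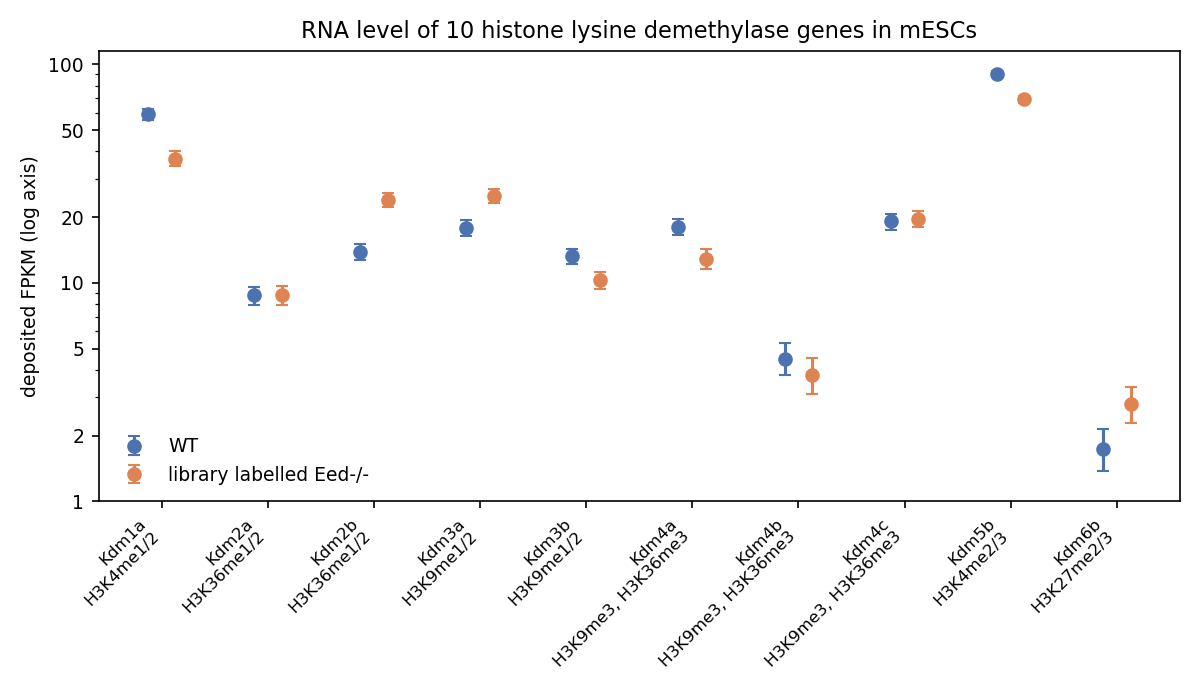
Deposited FPKM (log axis) of the 10 members in WT (blue) and in the library labelled Eed-/- (orange), ordered by gene name, with the histone marks that each enzyme removes under its name and bars for the 95% counting interval. Kdm5b and Kdm1a lead in both libraries, Kdm4b and Kdm6b are lowest, and Kdm2b is at 13.9 and 24.0.

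The H3K4 demethylase genes were the most abundant. Kdm5b, on chromosome 1 from 136456748 to 136529454 on the plus strand, had an FPKM of 90.7 in the WT library and 69.1 in the one labelled Eed-/-. This made it the highest of the members in both libraries, above 95.5% of the genes used in WT and 95.0% in the other library. Its change was -0.16, with a counting interval of -0.22 to -0.09, the narrowest of the members, since it rests on about 4019 and 2734 fragments. Chromosome 1 as a whole was lower in the library labelled Eed-/-, and against the median of its chromosome Kdm5b was higher by 0.14 rather than lower. The direction given for Kdm5b therefore depends on the reference, and it was the only member for which it did. Kdm1a, on chromosome 4 from 136106455 to 136158638 on the minus strand, had an FPKM of 59.0 in the WT library and 37.1 in the one labelled Eed-/-, from about 1216 and 682 fragments. With a change of -0.46 (interval -0.59 to -0.32), it was the member lowest in the library labelled Eed-/- relative to WT, and its normalized level there was 0.723 times that of WT (interval 0.658 to 0.795). The deposited levels of both libraries were apart by more than counting error, with intervals of 55.8 to 62.5 in the WT library and 34.4 to 40.0 in the one labelled Eed-/-. A change as low as that of Kdm1a or lower was found in 17.4% of all genes. Kdm5b was 1.54 times as abundant as Kdm1a in the WT library and 1.86 times in the one labelled Eed-/-. The median change of chromosome 4 was 0.02, so Kdm1a lay apart from its chromosome.

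The H3K36 demethylase genes differed from each other. KDM2B is the CXXC protein of the variant PRC1 complex, and its gene lies on chromosome 5 from 123320677 to 123465089 on the minus strand. Its FPKM was 13.9 in the WT library (counting interval 12.7 to 15.1) and 24.0 in the one labelled Eed-/- (22.3 to 25.7), from about 501 and 774 fragments. The normalized level was 1.95 times that of WT (interval 1.74 to 2.18) and the change 0.91 (0.75 to 1.07), the highest of the members. Of all genes, 95.2% had a lower change. Kdm2b shares 199 of its 11818 exon bases with the noncoding gene A930024E05Rik and 7 with Orai1, both on the opposite strand. KDM2A has the same domains, and its gene lies on chromosome 19 from 4316170 to 4398266 on the minus strand. Kdm2a was at an FPKM of 8.76 in the WT library and 8.77 in the one labelled Eed-/-, from about 447 and 400 fragments. Its change of 0.14 had an interval of -0.04 to 0.32, so no difference was detectable at this depth, and one of the size seen for Kdm2b lies outside that interval. The level of Kdm2b relative to Kdm2a was 1.58 in the WT library and 2.74 in the one labelled Eed-/-, a ratio of 1.73 with a counting interval of 1.45 to 2.06.

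The H3K9me1 and H3K9me2 demethylase genes also parted. Kdm3a encodes an enzyme known from male germ cells and from the response to low oxygen, and lies on chromosome 6 from 71538968 to 71582899 on the minus strand. It had an FPKM of 17.8 in the WT library (counting interval 16.5 to 19.3) and 25.1 in the one labelled Eed-/- (23.3 to 26.9), from about 603 and 757 fragments. The normalized ratio was 1.60 (1.43 to 1.78) and the change 0.65 (0.50 to 0.80), above that of 89.8% of all genes. Kdm3b, on chromosome 18 from 34936662 to 34999024 on the plus strand, had an FPKM of 13.3 in the WT library and 10.3 in the one labelled Eed-/-. Its change of -0.20 had an interval of -0.36 to -0.04, below 0, while the median of chromosome 18 was 0.10. Kdm3a was 1.35 times as abundant as Kdm3b in the WT library and 2.44 times in the one labelled Eed-/-, a ratio of 1.81 with an interval of 1.55 to 2.13. Kdm3b shares 53 exon bases with the noncoding gene Gm17557 on the other strand.

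The 3 KDM4 genes, whose enzymes act on H3K9me3 and H3K36me3, gave 1 value above 0 and 2 below. Kdm4a, on chromosome 4 from 117809562 to 117852648 on the minus strand, had an FPKM of 18.1 in the WT library and 12.9 in the one labelled Eed-/- and a change of -0.31 (interval -0.49 to -0.14). Kdm4c, also on chromosome 4 but from 73888401 to 74051764 on the plus strand, had 19.1 and 19.7, and a change of 0.21 (0.04 to 0.38). Deposited values of Kdm4c were thus nearly equal, and most of its change came from the scaling between the libraries, since the change was 0.04 without it. Kdm4b, on chromosome 17 from 56465485 to 56542293 on the plus strand, was at 4.50 in the WT library and 3.78 in the one labelled Eed-/-, from about 143 and 107 fragments, and its change of -0.11 had an interval of -0.40 to 0.20. At that depth no difference was detectable for Kdm4b. Kdm4c and Kdm4a were at similar levels in WT, with a ratio of 1.06, and at a ratio of 1.52 in the library labelled Eed-/-, 1.44 times higher with an interval of 1.21 to 1.72. The ratio of Kdm4c to Kdm4b was 4.25 in WT and 5.20 in the other library, and that of Kdm4a to Kdm4b 4.01 and 3.41, in both cases with intervals that hold no change (0.927 to 1.62 and 0.641 to 1.13).

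Kdm6b, the H3K27 demethylase gene also called Jmjd3 and known as inducible by inflammatory signals, was the least abundant. It lies on chromosome 11 from 69212010 to 69227177 on the minus strand and had an FPKM of 1.74 in the WT library (counting interval 1.37 to 2.15) and 2.78 in the one labelled Eed-/- (2.29 to 3.33). About 81 and 116 fragments stood behind these values. The normalized ratio was 1.72 (interval 1.28 to 2.31), and the change on the log2(FPKM + 1) scale 0.54 (0.24 to 0.87), which understates the ratio of a gene this low and stayed under 1.5-fold. Kdm6b shares 286 of its 6954 exon bases with 1700064E03Rik on the opposite strand, and whether the quantification used strand is not stated in the sources used here.

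**Figure D2:**
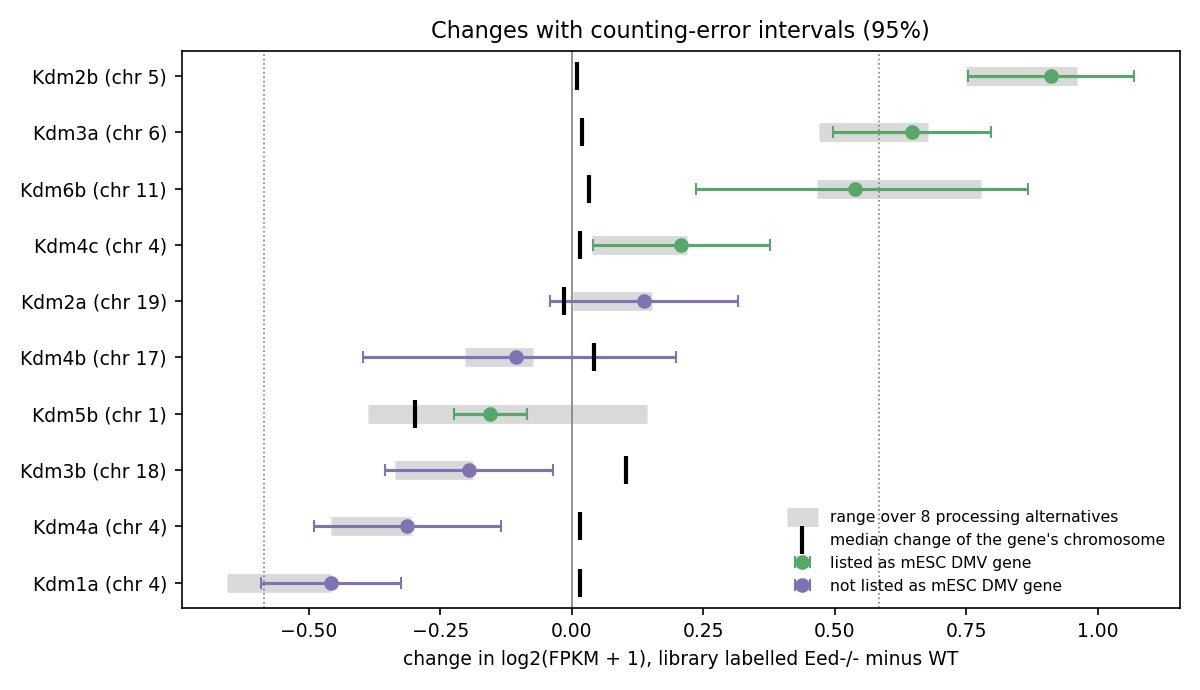
Change in log2(FPKM + 1), the library labelled Eed-/- minus WT, for each member, with bars for the 95% counting interval, grey bands for the range over 8 processing alternatives, black ticks for the median change of the gene's chromosome, and dotted lines at 1.5-fold. Kdm2b (0.91) and Kdm3a (0.65) lie beyond the right line, and the band of Kdm5b alone crosses 0.

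By the mark removed, the summed deposited FPKM of the members was 247 in the WT library and 214 in the one labelled Eed-/-, and their normalized sum was nearly equal, with a ratio of 0.992. H3K4me2 and H3K4me3 removal by Kdm5b took 36.7% of the sum in the WT library and 32.4% in the one labelled Eed-/-. The share of Kdm1a, for H3K4me1 and H3K4me2, was 23.9% and 17.4%. Together the H3K36me1 and H3K36me2 genes Kdm2a and Kdm2b held 9.16% and 15.3%, and their summed normalized level was 1.62 times that of WT. For H3K9me1 and H3K9me2, Kdm3a and Kdm3b held 12.6% and 16.6%, a normalized ratio of 1.28. The KDM4 genes held 16.9% and 17.0%, with a ratio of 0.976. Kdm6b, the H3K27 enzyme gene, made up 0.703% and 1.30%. Among these members the share of the H3K4 genes Kdm1a and Kdm5b together was 60.7% and 49.8%. That difference rested on which genes were summed. With Kdm5a, an H3K4 demethylase gene that is no member, added to the sum, the share of Kdm1a, Kdm5b and Kdm5a was 64.2% and 63.8%. Their summed FPKM was 174 and 189. Kdm1b and Kdm5c, also H3K4 demethylase genes, and non-members for other marks were not added, so this is no share of all H3K4 genes. All these shares are of RNA and not of enzyme activity.

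The order of the levels differed between the libraries in its middle. In WT it ran Kdm5b, Kdm1a, Kdm4c, Kdm4a, Kdm3a, Kdm2b, Kdm3b, Kdm2a, Kdm4b and Kdm6b. Neighbours whose counting intervals overlapped were Kdm4c with Kdm4a, Kdm4a with Kdm3a, and Kdm2b with Kdm3b, 3 of 9 neighbouring pairs. Such an overlap does not by itself mean that the levels cannot be ordered, and the order of neighbours was not tested. In the library labelled Eed-/- Kdm3a and Kdm2b took ranks 3 and 4, ahead of Kdm4c and Kdm4a, and the other members kept their sequence. There the overlapping neighbours were Kdm3a with Kdm2b, Kdm3b with Kdm2a, and Kdm4b with Kdm6b. Among all genes used, Kdm6b stood above 34.8% in the WT library and 43.1% in the one labelled Eed-/-.

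**Figure D3:**
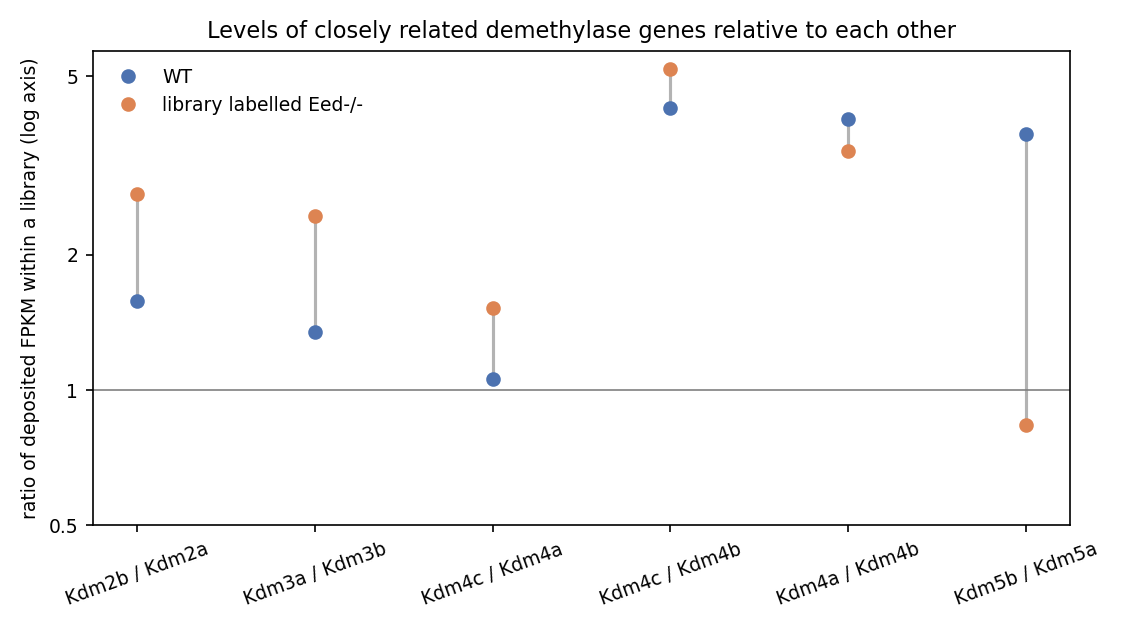
Deposited FPKM of a gene divided by that of a related demethylase gene in the same library (log axis), for WT (blue) and the library labelled Eed-/- (orange), joined by a grey line. Kdm2b over Kdm2a goes from 1.58 to 2.74, Kdm3a over Kdm3b from 1.35 to 2.44, and Kdm5b over Kdm5a from 3.72 to 0.837.

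Of the members, 5 are on the study's list of genes at mESC DMVs, namely Kdm2b, Kdm3a, Kdm4c, Kdm5b and Kdm6b. Their median change was 0.54, with 4 above 0 and Kdm5b below. The 5 that are not on the list, Kdm1a, Kdm2a, Kdm3b, Kdm4a and Kdm4b, had a median of -0.20, with Kdm2a above 0 and the other 4 below. The split was made with the values known and carries no test. Across all genes the list did not stand apart. Of its 1586 genes used, 12.6% were at least 1.5-fold higher and 13.2% at least 1.5-fold lower, against 12.2% and 12.3% of the 13249 other genes, and the median change was 0.01 in both.

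**Figure D4:**
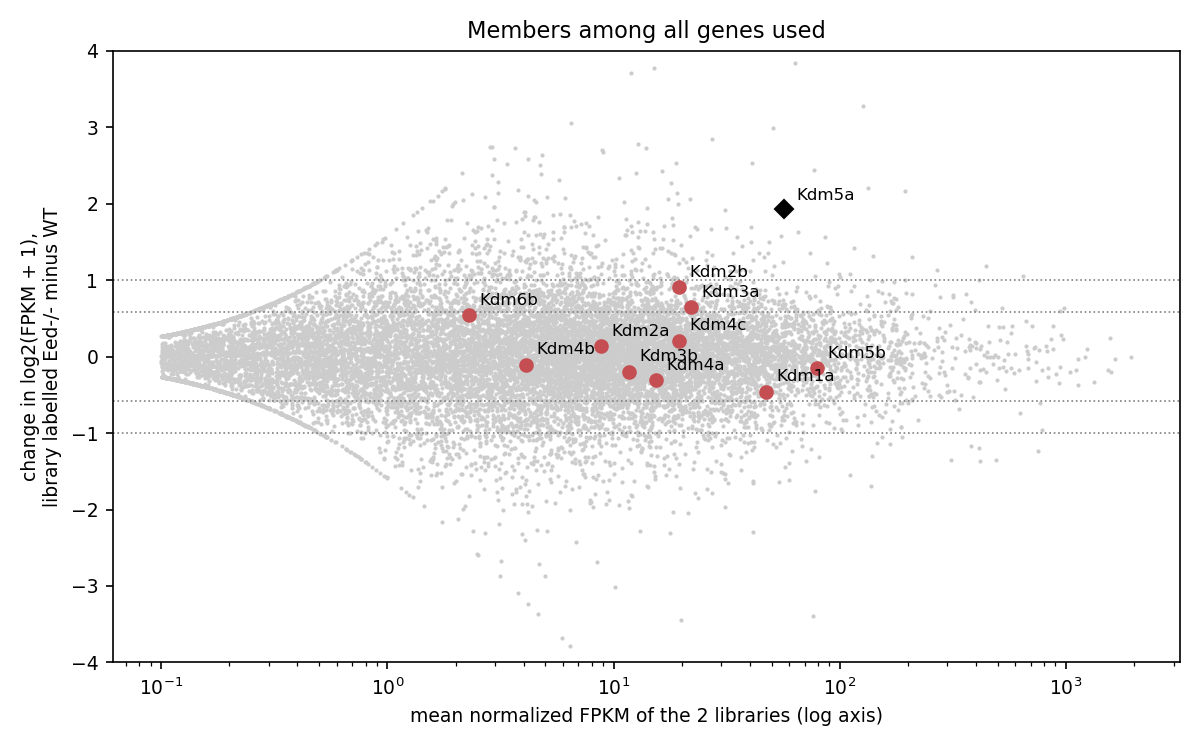
Change in log2(FPKM + 1), the library labelled Eed-/- minus WT, against the mean normalized FPKM of the libraries (log axis) for 14761 genes (grey), with the 10 members in red, Kdm5a as a black diamond and dotted lines at 1.5-fold and 2-fold in both directions. The 74 genes beyond the axes are not drawn. All members lie inside the 2-fold lines, and Kdm5a lies at 1.94.

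Among the other autosomal demethylase genes, Kdm5a stood far from the rest. KDM5A, which removes the same H3K4 methylation as KDM5B, is encoded on chromosome 6 from 120314117 to 120394592 on the plus strand. Its FPKM was 24.4 in the WT library and 82.7 in the one labelled Eed-/-, from about 1904 and 5756 fragments, with a change of 1.94 (counting interval 1.86 to 2.01). Its normalized level was 3.95 times that of WT (3.75 to 4.16), and 99.5% of all genes had a lower change. Kdm5b was 3.72 times as abundant as Kdm5a in the WT library and 0.837 times in the one labelled Eed-/-, so the order of these H3K4me3 demethylase genes was turned. The ratio of these ratios was 0.225 (interval 0.210 to 0.242). The median change of chromosome 6 was 0.02. Kdm5a shares 276 of its 14185 exon bases with Ccdc77 on the opposite strand.

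The other genes of that list, which also holds the ribosomal hydroxylase genes Mina and 2410016O06Rik, were closer to their WT levels. Of 12 listed, 11 were used, with a median change of 0.12. Of these, 2 (Kdm5a and Kdm8) were at least 1.5-fold higher and 1 (Hr) at least 1.5-fold lower, against 12.3% and 12.4% of all genes. Kdm8, a JmjC gene needed for cell division, had an FPKM of 2.32 in the WT library and 4.11 in the one labelled Eed-/-, from about 37 and 58 fragments, with a change of 0.71 (interval 0.23 to 1.24). Hr, the hairless gene of the KDM3 family known from hair follicles, had 2.19 and 0.847, with a change of -0.74 (-1.02 to -0.41). Jmjd1c, also of the KDM3 family, had 14.4 and 15.9 (change 0.28). Mina, which encodes a ribosomal hydroxylase, had 28.0 and 30.0 (0.29). Kdm1b, the relative of Kdm1a known from oocytes, had 5.32 and 5.61 (0.21), so the level of Kdm1a relative to Kdm1b was 11.1 in WT and 6.61 in the other library (ratio 0.596, interval 0.468 to 0.760). Rsbn1, whose product acts on H4K20, was at 5.28 and 5.21 (0.12). Jmjd6 was at 69.6 and 56.9 (-0.06), Kdm7a at 1.40 and 1.18 (-0.12), 2410016O06Rik, which encodes a ribosomal hydroxylase too, at 259 and 182 fragments (-0.19), and Phf2 at an FPKM of 1.17 and 0.824 (-0.23). Kdm4d had about 1 fragment in WT, was listed at 0 in the library labelled Eed-/- and was left out by the filter.

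Demethylase genes of the sex chromosomes are given apart, because the median change of the 543 genes of chromosome X was 0.46. The KDM5 gene Kdm5c was at an FPKM of 15.2 in the WT library and 22.3 in the one labelled Eed-/-, a change of 0.68 (interval 0.54 to 0.83), or 0.22 above the chromosome median. The H3K27 demethylase gene Kdm6a was at 8.42 and 11.2, a change of 0.52 (0.33 to 0.71) and 0.06 above that median. Phf8, whose product removes H3K9 and H4K20 methylation, was at 5.21 and 4.34, a change of -0.10, which is -0.56 relative to that median. Kdm6b amounted to 0.206 of the level of Kdm6a in the WT library and 0.248 in the one labelled Eed-/-, which could not be told apart by counting (ratio 1.20, interval 0.875 to 1.65). On chromosome Y, Uty was at 2.17 and 5.40 (change 1.12, interval 0.79 to 1.47), and Kdm5d at 0.0262 and 1.58, from about 1 and 54 fragments. Of these 5 genes, 3 (Kdm5c, Uty and Kdm5d) were at least 1.5-fold higher, against 12.3% of all genes. Against its chromosome median Kdm5c was less than 1.5-fold higher. The change of Kdm5d was 1.34, with an interval of 0.31 to 6.00. The median change of the 5 genes was 0.68.

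Proteins that work with KDM1A were next described by a list of 13 genes, of which 12 were used. Their median change was 0.06, with 2 at least 1.5-fold higher and 2 at least 1.5-fold lower, against 12.3% and 12.4% of all genes. Rcor1, which encodes the CoREST scaffold that holds KDM1A on nucleosomes, had an FPKM of 7.18 in the WT library and 2.07 in the one labelled Eed-/-, a change of -1.32 (interval -1.68 to -0.93). Gse1, a further subunit, had 10.2 and 3.39, a change of -1.25 (-1.46 to -1.04), on chromosome 8, whose median was -0.39. Zmym3, on chromosome X, had 9.79 and 19.3, a change of 1.08, and Hmg20b 9.72 and 13.9, a change of 0.61. Rcor2, the most abundant of the CoREST genes, had 81.4 and 79.0, a change of 0.19, and Rcor3 1.31 and 0.533, a change of -0.57. Of the 12 genes, 7 had changes above 0 and 5 below, so the list had no common direction with Kdm1a.

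The variant PRC1 complex of KDM2B was described by 9 genes, all used. Their median change was 0.27, with 4 at least 1.5-fold higher (Bcorl1, Bcor, Pcgf1 and Rybp) and 1 at least 1.5-fold lower (Ring1). Of all genes, 12.3% were at least 1.5-fold higher and 12.4% at least 1.5-fold lower. Bcor, the corepressor that names the complex, had an FPKM of 5.55 in the WT library and 11.1 in the one labelled Eed-/-, a change of 1.03 (interval 0.83 to 1.23). Its relative Bcorl1 had 0.513 and 2.53, a change of 1.27 (0.85 to 1.77). Both are on chromosome X, and lay 0.57 and 0.81 above the median of that chromosome, which for Bcor is less than 1.5-fold. Ring1, which encodes an E3 ligase for H2A, had about 48 and 18 fragments, a change of -0.81 (-1.27 to -0.27). Pcgf1, the subunit that sets this complex apart from other PRC1 forms, rested on about 4 and 9 fragments, and the interval of its change of 0.79 held 0.

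Among the methyltransferase genes that lay down the marks, the lists differed in spread more than in median. PRC2, which writes H3K27 methylation, had 11 genes with a median of 0.07. Of these, 1 was at least 1.5-fold higher and 3 at least 1.5-fold lower, against 12.3% and 12.4% of all genes. Phf19, an accessory subunit that binds H3K36me3, had an FPKM of 13.7 in the WT library and 2.61 in the one labelled Eed-/- (change -1.92, interval -2.21 to -1.62). The catalytic subunit gene Ezh2 had 34.2 and 17.7 (-0.73, interval -0.93 to -0.53), the histone-binding subunit gene Rbbp4 54.9 and 30.9 (-0.59), and Aebp2, a cofactor, 30.2 and 42.1 (0.67). The 6 H3K4 methyltransferase genes had a median of 0.14, and 1 of them was at least 1.5-fold higher. That gene was Kmt2c, an enhancer enzyme gene, with 4.56 and 11.5 (change 1.30, interval 1.16 to 1.45), and the next in size were Setd1b with 1.10 and 1.77 (0.44) and Kmt2a with 4.44 and 3.25 (-0.26). No gene of the 6 for H3K9 or of the 5 for H3K36 was 1.5-fold apart in either direction, and their medians were -0.06 and 0.22. The largest sizes there were those of Suv39h1 (7.50 and 9.08, change 0.38), Setdb1 (39.6 and 27.6, -0.32) and Ehmt1 (22.9 and 17.9, -0.16) for H3K9, and of Whsc1l1 (5.40 and 3.72, -0.33), Nsd1 (30.4 and 33.0, 0.31) and Ash1l (3.79 and 4.46, 0.29) for H3K36. Suv39h1 lies on chromosome X and Whsc1l1 on chromosome 8, and each was within 0.1 of the median change of its chromosome.

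**Figure D5:**
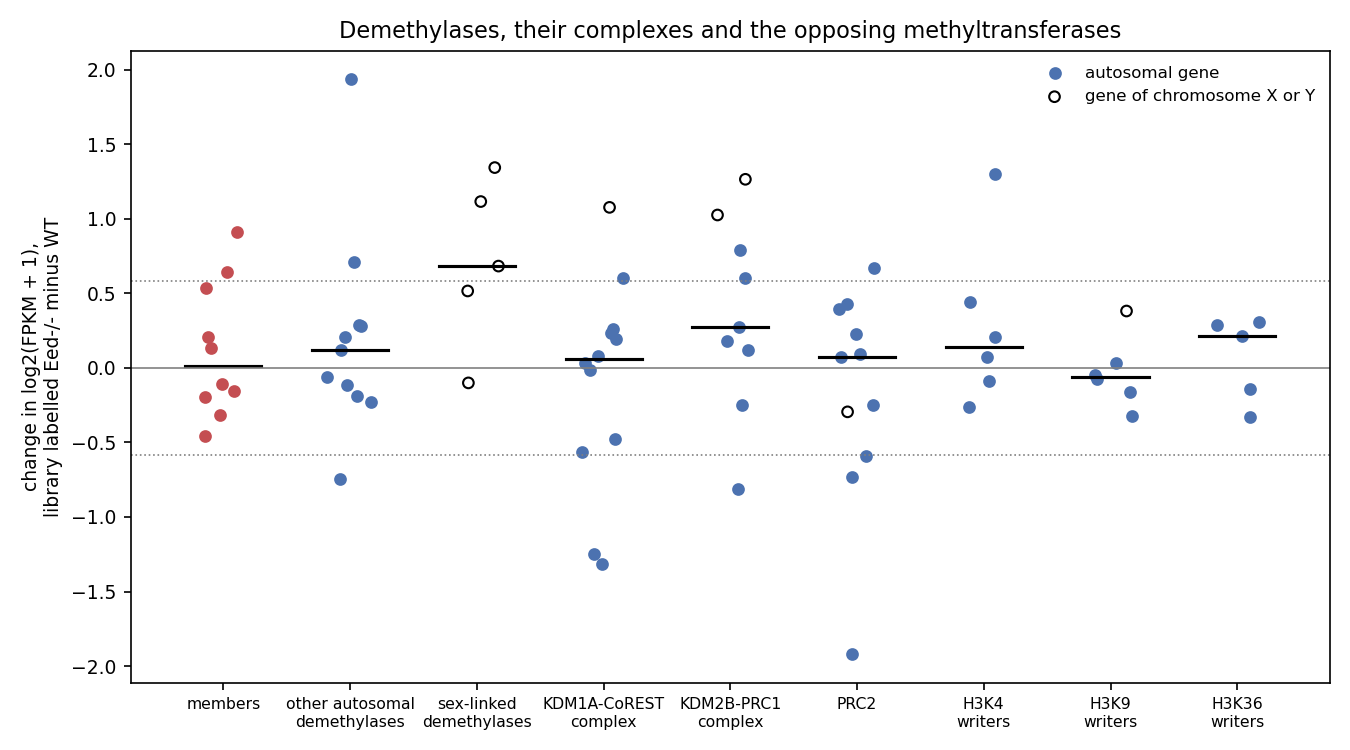
Change in log2(FPKM + 1), the library labelled Eed-/- minus WT, of the genes of 9 lists that passed the filter (points, spread sideways for sight). The list median is a black bar, genes of chromosomes X and Y are open circles, and dotted lines mark 1.5-fold. The 10 members (red) lie between -0.46 and 0.91, and Kdm5a (1.94) and Phf19 (-1.92) are the points farthest from 0.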

How the data were processed

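RNA-seq of WT and Eed-/- mESCs, with 1 library per genotype, was used. The samples of the other assays were not analysed here. The authors deposited 1 FPKM value for each symbol on mm9, made by mapping with TopHat and quantifying with Cufflinks (TopHat2 2.0.11 and Cufflinks 2.2.1 per the labels). The annotation, the options and any scaling are not given in the sources used here. Such FPKM values carry no read counts, and a gene's value moves with the transcript models.

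The 268 symbols with repeated entries, none a member, had their values summed, and the libraries were quantile-normalized. Changes are differences in log2(FPKM + 1), and genes with a mean of at least 0.1 were used. Folds of 1.5 and 2 on this scale are rules of size, not tests. Depth came from low values of 5103 genes with a single transcript (1000 bp or longer, less 180 bp). In WT 80.2% of 796 low values, and in the other library 80.3% of 890, were within 0.1 of a whole fragment. Where a gene has several transcripts its fragment number is approximate. Intervals are at 95%, exact Poisson for levels, exact conditional binomial for ratios and a normal approximation on the log scale for ratios of ratios.

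Positions and exon overlaps came from GENCODE vM1 on NCBIM37. No member had a near-identical copy (minimap2 2.31, at least 80% covered at 95% identity). The members and gene lists were chosen with earlier results of these data known. Named genes are all genes of the demethylase lists, Eed and, for each other list, the 3 genes with the largest change in either direction. Besides these, Pcgf1, Rybp, Hmg20b, Rcor2, Rcor3, Rbbp4, Pgk1 and the single markers were named after their values were seen. DMV genes were read from the study's list. A list of neural markers is not reported here. The scripts were tested on simulated data. Alternatives were unscaled FPKM, median-ratio scaling, pseudocounts of 0.1 and 0.01, other filters, repeated symbols left out, the chromosome median taken off and each member left out. Scripts ran under Python 3.11.15 with scipy 1.17.1, pandas 2.3.3, matplotlib 3.10.9 and numpy 2.4.6.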

Additional observations from a re-analysis of the deposited data

How the results depend on the processing

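With the FPKM as deposited, 1 member (Kdm2b) was at least 1.5-fold higher, Kdm3a (0.47) no longer was, and 1 (Kdm1a, change -0.66) at least 1.5-fold lower. On that scale the median of all genes was -0.09, and 9.18% of genes were at least 1.5-fold higher and 16.4% at least 1.5-fold lower. Pseudocounts of 0.1 and 0.01 added Kdm6b to the members at least 1.5-fold higher, with 21.1% of all genes higher at 0.1 and 22.3% at 0.01. No member was 2-fold apart under any of the 8 alternatives. The share of all genes at least 2-fold higher ran from 2.35% with no filter to 12.9% at a pseudocount of 0.01. Under the same settings, the share at least 2-fold lower ran from 2.46% to 13.4%. Of 80 member values under the alternatives, 1 had the other sign, that of Kdm5b against its chromosome median (0.14). Kdm1a ran from -0.66 to -0.46, Kdm2b from 0.75 to 0.96 and Kdm3a from 0.47 to 0.68. Leaving out 1 member at a time put the median change between -0.11 and 0.14, so its sign rests on single members. No paired analysis was possible because each genotype has 1 RNA-seq library. For a median member the counting interval reached 0.16 on either side of the change, and it was wider for members with fewer fragments.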

Other observations

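JmjC enzymes use alpha-ketoglutarate and are inhibited by succinate and fumarate. The 12 genes for enzymes that make or use these acids had a median change of 0.02. Of these, 1 was at least 1.5-fold higher and 1 at least 1.5-fold lower, against 12.3% and 12.4% of all genes. Idh3g, a subunit of the isocitrate dehydrogenase of the citric acid cycle, had an FPKM of 41.3 in the WT library and 63.7 in the one labelled Eed-/-, a change of 0.82, on chromosome X with its median of 0.46. Fh1, which encodes fumarate hydratase, had 58.2 and 33.2 (-0.59), and Sdhc, a subunit of succinate dehydrogenase, 108 and 60.9 (-0.58). Both lie on chromosome 1, whose median was -0.30.

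Of 15 genes known as targets of the hypoxia-inducible factors, 14 were used, with a median change of 0.04. Of these, 2 were at least 1.5-fold higher and 2 at least 1.5-fold lower, against 12.3% and 12.4% of all genes. Pdk1, which holds pyruvate back from the mitochondria, had an FPKM of 32.0 in the WT library and 6.19 in the one labelled Eed-/-, a change of -2.04. Ndrg1 had 3.73 and 8.80 (1.16), Pgk1, a glycolysis gene of chromosome X, 9.32 and 14.5 (0.72), and Egln3, an oxygen sensor gene, 3.99 and 1.61 (-0.86). Of the members known as targets of these factors, Kdm3a had a change of 0.65, Kdm4c of 0.21 and Kdm4b of -0.11.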
